A study of Arabidopsis thaliana with 48 samples.

Results

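The 3′ ends of Arabidopsis 18S rRNA that stop short of the mature terminus by 3, 4 or 5 nt were quantified by 18S-ENDseq, a method that ligates rRNA into circles, amplifies across the junction of the 5′ and 3′ ends, and reads where each molecule stops and how many untemplated nucleotides follow. The shortened ends were taken by position alone: positions 1886, 1887 and 1888 of the 45S rDNA reference used for the counts, where 1891 is the last base of mature 18S rRNA, here called the D site. They are referred to as -5, -4 and -3. With tails of 0 to 10 nt they made up 33 of the 330 combinations of position and tail length, 3 of the 30 positions, and 461947 of 149915498 reads in the 48 libraries.

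Seedlings (18 days old) of 4 genotypes were compared: WT (Col-0), hot3-2, dcl2 dcl4, and hot3-2 dcl2 dcl4, which carries all 3 mutations. hot3-2 is a T-DNA allele of HOT3, the gene for eIF5B1, and the dcl2-1 and dcl4-2 alleles affect a pair of Dicer-like RNases of the siRNA pathways. hot3-2 was a single allele, with no second allele or complemented line among these libraries. RNA came from total extract, from gradient fractions lighter than the 80S monosome (nonpolysome), or from polysomes, with 4 libraries in each of the 12 groups. Each library gave 1815545 to 6468532 reads, of which 1342007 to 6103144 ended untailed at D. Mature 18S rRNA, the molecule that the method targets, was thus the most frequent species in these libraries.

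In eukaryotes 18S rRNA is cut from a long precursor, and the last spacer bases are removed in the cytoplasm by an endonuclease that cleaves at site D. In yeast, eIF5B, a GTPase that joins the ribosomal subunits during initiation, promotes a test joining of the immature small subunit with a large subunit, in which this cleavage occurs. An untailed molecule that ends before D lacks bases of the mature sequence, and nucleotides that follow such an end without matching the reference are counted as its tail.

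The sequences are shown to place the 3 shortened ends relative to D. They are from RefSeq (TAIR10.1), plus strand, and the last bases of the 18S rRNA gene AT2G01010 (1808 bp) and of AT3G41768 were identical. Capitals mark the bases at -5, -4 and -3.
Mature 18S 3′ end (chr2:5494-5513): aacctgcggaaggaTCAttg
The same end with the first bases of the spacer ITS1 (chr2:5494-5518): aacctgcggaaggaTCAttgtcgat
End at -3 (chr2:5494-5510): aacctgcggaaggaTCA
End at -4 (chr2:5494-5509): aacctgcggaaggaTC
End at -5 (chr2:5494-5508): aacctgcggaaggaT
Reads of these ends cannot be assigned to either gene copy.

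All levels are given as reads per 100 D-site reads of the same library, that is, as percent of D, and untailed and tailed reads were kept apart. Untailed reads were mostly at -3. The number per library ran from 26 to 2598 at -5 with a median of 89, from 115 to 6772 at -4 with a median of 328, and from 2482 to 21339 at -3 with a median of 5577. The -3 end held between 69.5% and 96.9% of the untailed shortened reads, with a median of 91.9%. Tailed reads were spread more evenly over the positions, with 104 to 453 reads per library at -5, 205 to 983 at -4 and 499 to 3200 at -3. For the summed untailed reads, most of them at -3, the 95% Wilson interval of their share of all reads reached 1.11% to 3.78% of the share on each side. At -5 in total RNA, with 26 to 50 untailed reads in the WT and hot3-2 libraries, counting error was larger. These intervals cover counting error only, since PCR copies were not marked.

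In total RNA, no genotype comparison of the summed untailed shortened ends passed the exact permutation test after adjustment. They amounted to 0.160% ± 0.0474 of D in WT, 0.164% ± 0.0437 in hot3-2, 0.170% ± 0.0381 for dcl2 dcl4 and 0.169% ± 0.0442 for the triple mutant (SD, n = 4). At -3, which carried most of these reads, the WT libraries of replicates 1 to 4 held 0.145%, 0.0914%, 0.199% and 0.177% of D. The hot3-2 libraries held 0.151%, 0.0968%, 0.195% and 0.181%. The ranges of both genotypes overlapped almost wholly, and in both the lowest library was replicate 2.

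At -5, in contrast, hot3-2 differed from WT in total RNA, with tailed and untailed reads both higher. Untailed reads at -5 made up 0.000762%, 0.00115%, 0.00103% and 0.00102% of D in WT. In hot3-2 they made up 0.00178%, 0.00191%, 0.00158% and 0.00164%. Every hot3-2 library thus lay above every WT library. Tailed reads at -5 made up 0.00537%, 0.00548%, 0.00485% and 0.00668% of D in WT, and 0.0122%, 0.0107%, 0.0105% and 0.0113% in hot3-2, again with no overlap. By edgeR's quasi-likelihood test with Benjamini-Hochberg adjustment over the whole table, the untailed reads at -5 rose by 0.80 ± 0.16 on the log2 scale (SE, adjusted p = 0.000909) and the tailed reads at -5 by 0.99 ± 0.13 (adjusted p = 2.78e-05). The other 4 classes did not pass: the log2 differences were 0.12 for untailed and -0.12 for tailed reads at -4, and 0.02 and 0.12 at -3. The 2 of 6 classes called compare with 86.4% of the 59 rows (each position split into untailed and tailed reads) called in this comparison, and the median log2 difference of all rows was 2.92.

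The nonpolysome fraction held the highest levels of untailed shortened ends in hot3-2. At -5, WT libraries held 0.0108%, 0.0109%, 0.0107% and 0.0117% of D. The hot3-2 libraries held 0.148%, 0.0351%, 0.150% and 0.0345%. All hot3-2 libraries were above all WT libraries, but they fell into pairs, replicates 1 and 3 high and replicates 2 and 4 lower. At -4, WT libraries held 0.0444%, 0.0541%, 0.0437% and 0.0558% of D, and hot3-2 libraries 0.385%, 0.102%, 0.388% and 0.102%, with the same pairs and no overlap with WT. At -3, WT libraries held 0.278%, 0.255%, 0.331% and 0.335%, and hot3-2 libraries 1.21%, 0.413%, 1.24% and 0.507%, once more above WT throughout.

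**Figure D1:**
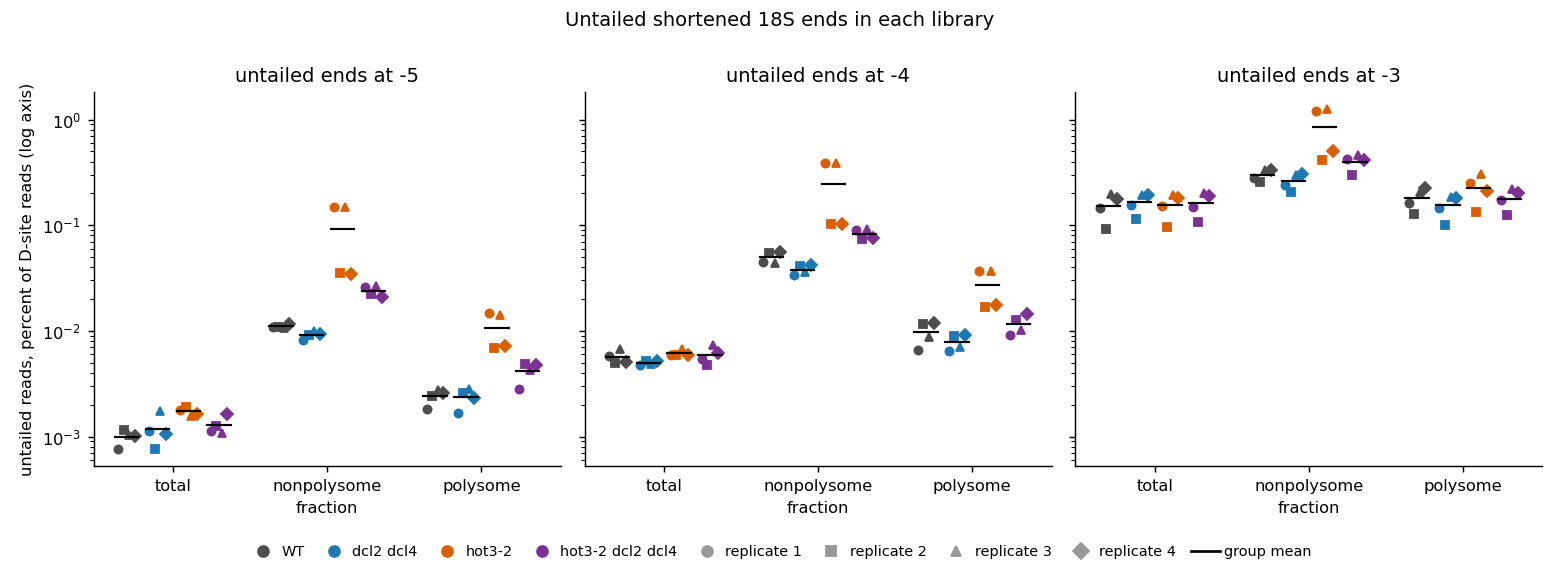
Untailed reads at -5, -4 and -3 as percent of D (log axis) for each library, by fraction and genotype; points are libraries and bars the group means. In the nonpolysome fraction the hot3-2 libraries at -5 sit at 0.0345% to 0.150%, above the WT libraries at 0.0107% to 0.0117%.

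By edgeR, 4 of the 6 classes were called in nonpolysome hot3-2 relative to WT, all of them higher, beside 89.8% of all rows called. The untailed ends rose by 3.05 ± 0.51 at -5 (log2 ± SE, an 8.29-fold difference, adjusted p = 0.000104), by 2.30 ± 0.45 at -4 (4.93-fold, adjusted p = 0.000429) and by 1.49 ± 0.35 at -3 (2.81-fold, adjusted p = 0.00143). Tailed reads at -5 rose by 1.53 ± 0.25 (adjusted p = 0.000106), from 0.00812%, 0.00512%, 0.00668% and 0.00593% of D in WT to 0.0246%, 0.0147%, 0.0199% and 0.0155% in hot3-2. Tailed reads at -4 and -3 did not pass, with log2 differences of -0.02 and 0.36. The median log2 difference of all rows was 3.21, above the difference of each shortened end. Summed over the 3 positions, the untailed ends were at 1.18% ± 0.675 in hot3-2 against 0.361% ± 0.0399 in WT (SD, n = 4), a log2 ratio of 1.71. The 2-sided exact permutation test gave p = 0.0286, the smallest value that 4 libraries against 4 allow, and 0.171 after adjustment over the 12 genotype comparisons.

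In polysomes the -5 and -4 ends were again higher in hot3-2, whereas the -3 end was not called. At -5, untailed reads made up 0.00182%, 0.00241%, 0.00278% and 0.00259% of D in WT and 0.0148%, 0.00685%, 0.0140% and 0.00718% in hot3-2. At -4 they made up 0.00665%, 0.0116%, 0.00879% and 0.0119% in WT and 0.0366%, 0.0167%, 0.0370% and 0.0174% in hot3-2. The genotypes did not overlap at either position, and replicates 1 and 3 of hot3-2 were again the higher libraries. At -3, WT libraries held 0.163%, 0.126%, 0.205% and 0.223% and hot3-2 libraries 0.252%, 0.133%, 0.307% and 0.210%, which overlapped. By edgeR, 3 of 6 classes were called, beside 76.3% of all rows: untailed -5 (2.17 ± 0.28, 4.5-fold, adjusted p = 2.32e-09), untailed -4 (1.47 ± 0.26, 2.77-fold, adjusted p = 2.87e-06) and tailed -5 (0.56 ± 0.24, adjusted p = 0.0344), as log2 ± SE. The last of these lost its call without any one of hot3-2 replicates 1 and 3 or WT replicates 1, 2 and 3, and with replicates 1 and 3 summed and 2 and 4 summed (adjusted p = 0.218, edgeR). Untailed -3 differed by 0.33 (adjusted p = 0.176), and the median of all rows was 2.24.

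These directions hold relative to D-site reads. When rows were scaled by TMM over the whole table in place of D, the median log2 difference of all rows moved by -1.79 to -2.72 in the 6 comparisons of a hot3-2 genotype with its own control, and of the classes called above in hot3-2 against WT only untailed -5 in the nonpolysome and polysome fractions kept a positive sign. Relative to the other ends counted, most shortened ends thus rose less than the rest.

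The dcl2 dcl4 mutations by themselves gave no class called by edgeR at the shortened ends. By edgeR, 0 of 6 classes were called in each fraction, beside 0% of all rows, with 0, 1 and 0 classes at an unadjusted p under 0.05 in total, nonpolysome and polysome, and DESeq2 called 0 in each. In the nonpolysome fraction, dcl2 dcl4 libraries held 0.00827%, 0.00909%, 0.0101% and 0.00934% of D as untailed reads at -5, each below every WT library, although the difference was not called. With the replicate number as a block, 1 class was called there, and with replicates 1 and 3 summed and replicates 2 and 4 summed (the summed replicate pairs) 0, with 0 at an unadjusted p under 0.05. The sum of untailed -5 and -4, without -3, was lower in nonpolysome dcl2 dcl4 than in WT (log2 ratio -0.36). Its adjusted p of 0.049 by exact permutation fell under 0.05 only because hot3-2 comparisons adjusted with it also reached the smallest p. That value therefore cannot by itself show an effect of dcl2 dcl4. For the single untailed ends in this comparison edgeR gave adjusted p = 0.528 at -5 and 0.515 at -4.

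In the dcl2 dcl4 background, hot3-2 gave higher untailed -5, -4 and -3 ends in the nonpolysome fraction. In the nonpolysome fraction of hot3-2 dcl2 dcl4, untailed reads made up 0.0262%, 0.0222%, 0.0266% and 0.0208% of D at -5. At -4 they made up 0.0892%, 0.0746%, 0.0912% and 0.0754%, against 0.0334%, 0.0409%, 0.0361% and 0.0418% in dcl2 dcl4. At both positions the triple mutant lay above dcl2 dcl4 in every library. By edgeR 3 of 6 classes were called, beside 88.1% of all rows: untailed -5 (1.38 ± 0.16, adjusted p = 4.41e-06), untailed -4 (1.12 ± 0.16, adjusted p = 3.98e-05) and untailed -3 (0.61 ± 0.18, adjusted p = 0.00734). Untailed -3 lost its call with the summed replicate pairs (adjusted p = 0.0761, edgeR). In total RNA the only class called of 6 was tailed -5 (0.79 ± 0.14, adjusted p = 0.000327), beside 79.7% of all rows. In polysomes 2 of 6 were called, beside 79.7% of all rows: untailed -5 (0.82 ± 0.22, adjusted p = 0.00262) and untailed -4 (0.55 ± 0.18, adjusted p = 0.0105), the latter not with the summed replicate pairs (adjusted p = 0.0614, edgeR). All of these classes turned negative under TMM scaling.

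Untailed -5 and -4 reads were lower in both gradient fractions of hot3-2 dcl2 dcl4 than of hot3-2. The calls depended on which libraries were used. In polysomes, hot3-2 dcl2 dcl4 libraries held 0.00281%, 0.00485%, 0.00427% and 0.00473% of D at -5, all below the hot3-2 libraries. At -4 they held 0.00913%, 0.0126%, 0.0102% and 0.0145%, which were also all below hot3-2. By edgeR these fell by 1.36 ± 0.30 (adjusted p = 0.047) and by 1.21 ± 0.29 (adjusted p = 0.0482) on the log2 scale; they were the only 2 rows called, 3.39% of the table. The nonpolysome libraries of the triple mutant also all lay below those of hot3-2 at -5, at 0.0208% to 0.0266% against 0.0345% to 0.150%. At -4 they held 0.0746% to 0.0912% against 0.102% to 0.388%, while at -3 the genotypes overlapped. In the nonpolysome fraction the log2 differences were -1.94 at -5 (adjusted p = 0.137), -1.56 at -4 (adjusted p = 0.159) and -1.08 at -3 (adjusted p = 0.223) by edgeR, with 0 of 6 classes and 0% of rows called, 3 classes at an unadjusted p under 0.05, and 2 called by DESeq2. In total RNA 0 of 6 classes and 0% of rows were called by edgeR, with 1 at an unadjusted p under 0.05 and 0 called by DESeq2. With the replicate number as a block, 1 class was called in each of the 3 fractions, and the share of all rows called by that fit was not worked out. Without single libraries, the number of classes called ran from 0 to 3 in the nonpolysome fraction, 3 being without hot3-2 replicate 2, and in polysomes it was 0 without any one library other than hot3-2 replicates 2 and 4.

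**Figure D2:**
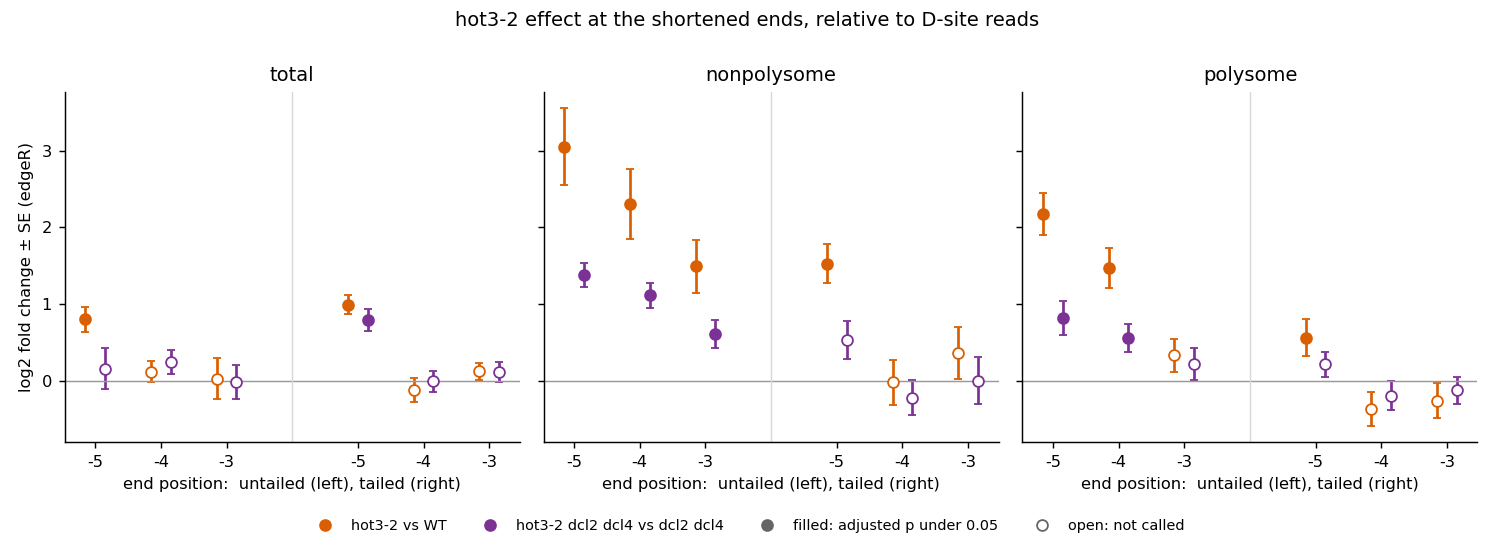
Log2 difference (edgeR, ± SE) of hot3-2 against WT and of hot3-2 dcl2 dcl4 against dcl2 dcl4 at each shortened position, untailed and tailed reads apart, in the 3 fractions; filled points were called. The untailed values run from 3.05 at -5 to 1.49 at -3 in nonpolysome hot3-2, and tailed reads at -4 and -3 lie near 0 in nonpolysome hot3-2 (-0.02 and 0.36).

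Whether the effect of hot3-2 depended on the fraction was tested as an interaction in edgeR. The effect on untailed reads was larger in the nonpolysome fraction than in total RNA by 2.25 ± 0.59 at -5 (log2 ± SE, adjusted p = 0.0331) and 2.18 ± 0.51 at -4 (adjusted p = 0.0283), and these were 2 of 6 classes called beside 6.78% of all rows. At -3 the value was 1.47 (adjusted p = 0.058). Without single libraries 0 to 3 classes were called, with 0 when any one of 8 libraries was left out, hot3-2 nonpolysome replicates 1 and 3 among them. The effect was also larger in polysomes than in total RNA, by 1.37 ± 0.37 at -5 and 1.35 ± 0.36 at -4 (both adjusted p = 0.0223 by edgeR), 2 of 6 classes beside 8.47% of all rows, although 1 was called with the replicate block and 0 without hot3-2 polysome replicate 1 or 3. With the summed replicate pairs the polysome minus total values at -5 and -4 did not pass (both adjusted p = 0.146, edgeR). Between the nonpolysome and polysome fractions, edgeR called 0 of 6 classes, beside 13.6% of all rows, with 2 at an unadjusted p under 0.05, 1 called by DESeq2, 3 with the replicate block and 0 with the summed replicate pairs. For the effect of hot3-2 in the dcl2 dcl4 against the WT background, no class passed edgeR's interaction test in any fraction (0 of 6 classes and 0% of rows called, with 0, 4 and 2 classes at an unadjusted p under 0.05 in total, nonpolysome and polysome, and 0, 0 and 1 by DESeq2); the polysome value for untailed -5 was -1.35 ± 0.37 (adjusted p = 0.0859).

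The hot3-2 libraries of the gradient fractions paired by replicate number. In nonpolysome RNA the untailed counts at -5 and -4 of replicates 1 and 3, and of replicates 2 and 4, did not differ beyond sampling noise (chi-square test) in 8 of 8 pairs over the 4 genotypes, whereas 0 of the 16 other pairs of the same groups were that close. In polysomes 5 of 8 against 0 of 16 pairs were that close, and in total RNA, with fewer reads at these ends, 6 of 8 against 10 of 16. In nonpolysome hot3-2 the larger of the 2 log2 differences was 0.0234 between replicates 1 and 3 and 0.0257 between replicates 2 and 4, but 2.07 to 2.12 between libraries of different pairs. Over all 6 classes together with D, all 72 pairs of libraries of one group differed by more than counting error, a test that does not tell separate extracts from separate preparations of one. The libraries were counted as 4 per group, as the labels give them, and whether replicates 1 and 3, or 2 and 4, share a source was not tested. The study describes biological replicates. Permutation p-values measure only the spread between these libraries, and edgeR's p-values rest also on dispersion shared over the rows of the table.

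The size of the hot3-2 difference followed these pairs. In nonpolysome RNA the hot3-2 to WT ratio of untailed reads was 13.8 at -5 in replicates 1 and 3 and 3.07 in replicates 2 and 4. It was 8.77 and 1.86 at -4, and 4.03 and 1.56 at -3. Tailed reads at -5 had ratios of 3.003 and 2.73, close to each other in both pairs. In polysomes the untailed ratios were 6.28 and 2.81 at -5 and 4.77 and 1.45 at -4. With replicates 1 and 3 summed and replicates 2 and 4 summed, leaving 2 libraries a group, edgeR called 2, 4 and 2 of 6 classes for hot3-2 against WT in total, nonpolysome and polysome, beside 83.1%, 86.4% and 72.9% of all rows. For hot3-2 dcl2 dcl4 against hot3-2 it called 3 of 6 in the nonpolysome fraction, beside 5.08% of all rows, and 0 in polysomes, with 2 at an unadjusted p under 0.05. For untailed -5 in that nonpolysome comparison the adjusted p was 0.000895 with 2 libraries a group and 0.137 with 4 (edgeR). With so few libraries edgeR leans on the dispersion shared with other rows, so these calls do not measure the spread between the summed pairs.

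**Figure D3:**
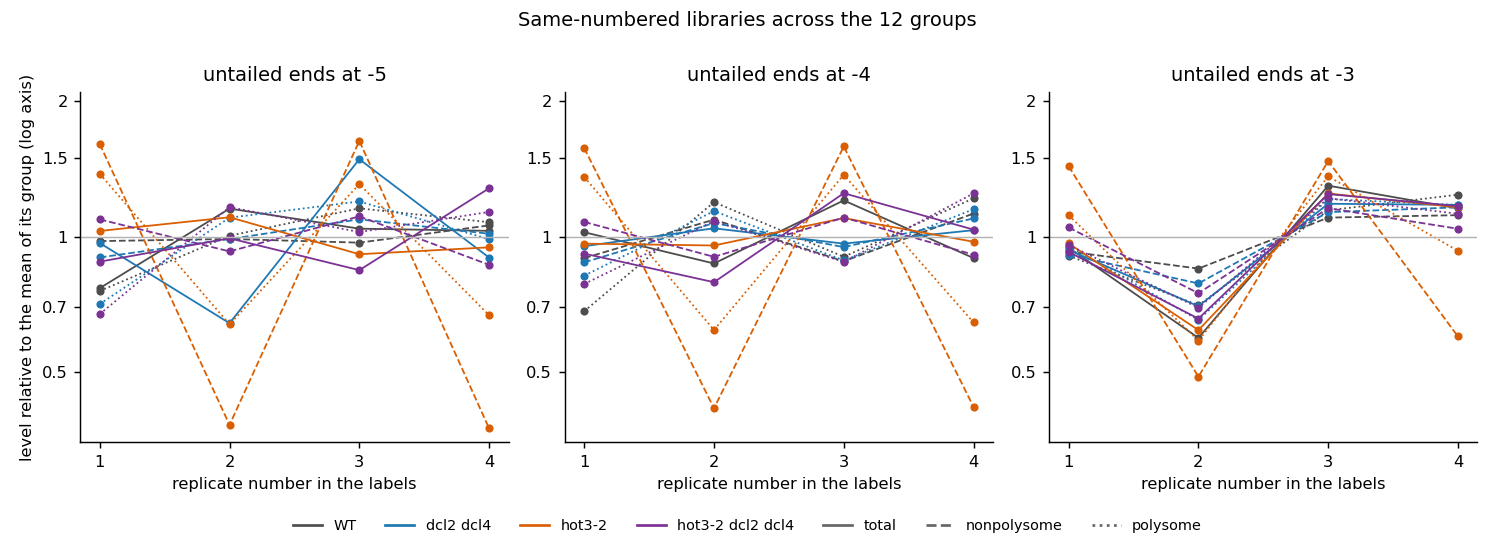
Untailed reads of each library relative to the mean of its group (log axis) by replicate number, with 1 panel per shortened position and lines joining the libraries of one group, coloured by genotype and dashed by fraction; the numbers carry no order. In nonpolysome hot3-2, replicates 1 and 3 lie above and replicates 2 and 4 below the group mean at every position, and at -3 replicate 2 is the lowest library in all 12 groups.

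The -3 end varied by replicate number in every group, apart from the genotype. Replicate 2 was the lowest of the 4 libraries in 12 of 12 groups, and the highest was replicate 3 in 9 groups and replicate 4 in 3. The part of this shared pattern in the -3 results was not tested beyond the fit with the replicate block.

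The fractions themselves differed in all genotypes. The summed untailed ends were higher in nonpolysome than in total RNA by log2 ratios of 1.17 in WT, 2.85 in hot3-2, 0.86 in dcl2 dcl4 and 1.58 in the triple mutant, and higher than in polysomes by 0.91, 2.17, 0.92 and 1.38 in the same order. Each of these 8 had p = 0.0286 by exact permutation, 0.0429 after adjustment over 12 fraction comparisons. Polysomes and total RNA were closer, at 0.26, 0.68, -0.06 and 0.20, with exact permutation p = 0.4, 0.143, 0.686 and 0.429. That test did not pair libraries of the same replicate number. Within such pairs polysomes were higher in 4 of 4 in WT, hot3-2 and the triple mutant, and in 0 of 4 in dcl2 dcl4. A sign-flip test of 4 pairs cannot give p below 0.125. The nonpolysome fraction was therefore the one in which shortened ends were most frequent relative to D.

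For untailed reads this excess was steeper the shorter the end. In WT, the ratio of nonpolysome to total RNA was 11.2 at -5, 8.78 at -4 and 1.96 at -3 for untailed reads. In hot3-2 it was 53.2, 40.0 and 5.42. Of the 6 classes, 5 in WT and 6 in hot3-2 were higher in nonpolysome than in total RNA with no overlap between libraries, beside 61% and 86.4% of all rows. For polysomes against total RNA the untailed ratios in hot3-2 were 6.20 at -5, 4.41 at -4 and 1.45 at -3. Of the 6 classes, 2 (untailed -5 and -4) were higher in polysomes with no overlap, beside 3.39% of all rows, and 1 (tailed -5, at a ratio of 0.839) was lower with no overlap, beside 69.5% of all rows.

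Tailed shortened ends differed between fractions, whereas no comparison of genotypes passed for their sum. Summed over the positions, tailed reads amounted to 0.0389% ± 0.00395 of D in total WT RNA, 0.0955% ± 0.0395 in nonpolysome and 0.0522% ± 0.00733 in polysome RNA (SD, n = 4). In hot3-2 they amounted to 0.0455% ± 0.00286, 0.126% ± 0.0307 and 0.0466% ± 0.00796. By exact permutation 8 of 12 fraction comparisons passed after adjustment, among them nonpolysome over total in every genotype (log2 ratios of 1.30 in WT, 1.47 in hot3-2, 1.71 in dcl2 dcl4 and 1.51 in the triple mutant), and 0 of 12 genotype comparisons did. The lowest of the latter was p = 0.0286 (exact permutation, adjusted 0.343), for hot3-2 dcl2 dcl4 over dcl2 dcl4 in total RNA, at a log2 ratio of 0.21. With -3 left out, none of the 8 fraction comparisons passed. In WT, tailed reads at -3 were at 0.0218% of D in total and 0.0664% in nonpolysome RNA. The values were 0.0116% and 0.0227% at -4, and 0.00559% and 0.00646% at -5, so the excess was not steeper at the shorter ends.

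The share of reads that carried a tail was higher at -5 than at -3 in total RNA. In total WT RNA, 84.9% ± 2.66 of the reads at -5 were tailed, 67.0% ± 4.68 at -4 and 13.1% ± 3.04 at -3 (SD, n = 4). In nonpolysome WT RNA these shares were 36.7% ± 4.95, 31.2% ± 10.0 and 17.8% ± 6.95. In nonpolysome hot3-2 they were 21.6% ± 10.1, 10.8% ± 5.10 and 10.3% ± 3.01, so that -4 and -3 did not differ beyond their spread. Over the 3 positions together, 11.2% ± 3.77 of nonpolysome shortened reads were tailed in hot3-2 against 20.6% ± 7.06 in WT, with exact permutation p = 0.0571 and 0.114 after adjustment, so the difference did not pass.

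Tail lengths differed between the 3 positions. At -5 the commonest tail in total WT RNA was 7 nt, with 47.8% ± 6.78 of the tailed reads, and 31.6% ± 8.53 had 5 nt, the length that brings a read level with D. At -4 the commonest was 2 nt (49.2% ± 4.22), and 31.2% ± 6.61 had 4 nt, level with D. At -3 a single nucleotide was the commonest (57.6% ± 3.17). Added to the end position, these lengths bring most tailed reads to one of 3 places: 47.1% ± 3.1 of all tailed shortened reads in total WT RNA reached -2, 17.7% ± 3.7 reached D and 15.2% ± 1.5 reached +2, against 7.6% for -1. The bases of the tails were not analysed here, so whether they differ from the 18S and spacer sequence printed above was not tested.

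**Figure D4:**
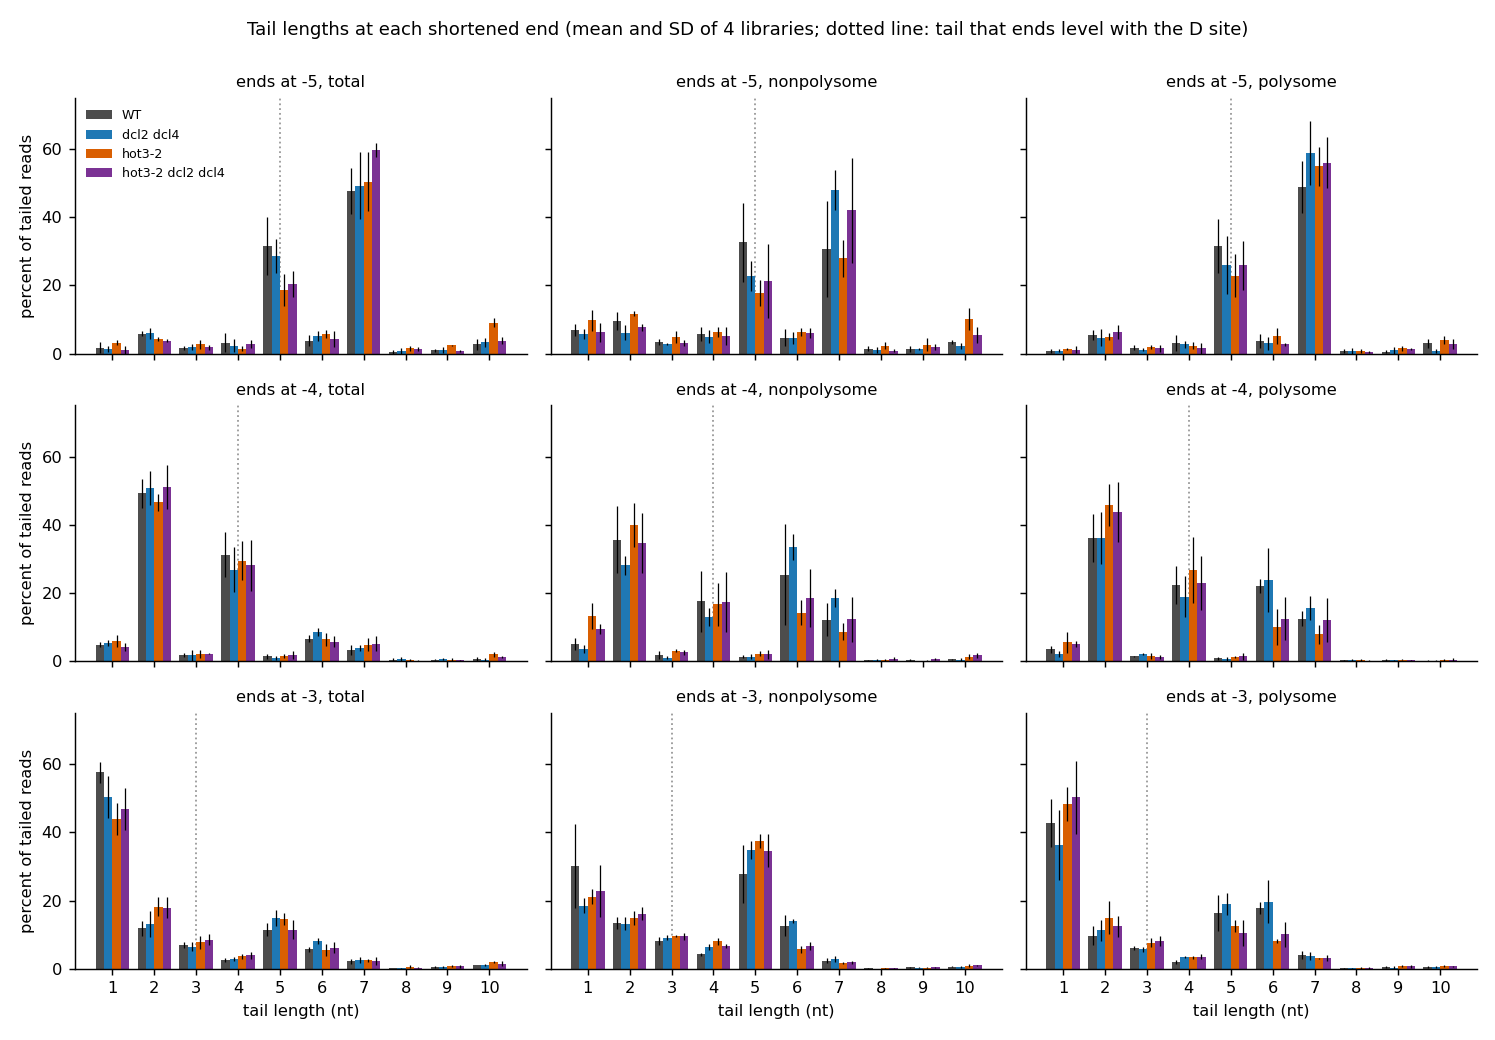
Percent of tailed reads with each tail length from 1 to 10 nt at -5, -4 and -3, by genotype and fraction (mean ± SD, n = 4). In total WT RNA the peaks are at 7 nt for -5 (47.8%), 2 nt for -4 (49.2%) and 1 nt for -3 (57.6%).

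Single tail lengths were also compared by edgeR, in a table with a row for every position and tail length. Besides the commonest lengths and those level with D, the lengths named here were chosen after their values were seen. For hot3-2 against WT in total RNA, 6 of 18 tailed classes tested rose and 0 fell, beside 86.9% of all rows called higher and 0.469% lower. The 7-nt tail at -5 rose by 1.10 ± 0.20 on the log2 scale (edgeR, adjusted p = 0.000282). The 10-nt tail at -5, the longest counted, held 2 to 9 reads per library in WT and 22 to 30 in hot3-2. It reached the filter of 10 counts in 4 libraries only through hot3-2, so only the size of its difference is given, 2.66 ± 0.35. This tail made up 9.1% ± 1.22 of the tailed reads at -5 in hot3-2 and 2.7% ± 1.53 in WT. In the triple mutant its share was 3.8% ± 1.05, against 3.3% ± 1.28 in dcl2 dcl4. The 5-nt tail at -5 was not called, and its share was 18.7% ± 4.74 in hot3-2 against 31.6% ± 8.53 in WT. The 6-nt tail at -5, which was among the classes that rose, also reached the filter only through hot3-2. It held 2 to 14 reads per library in WT and 14 to 19 in hot3-2. In the nonpolysome fraction 10 of 22 classes rose and 0 fell, beside 89.7% of all rows higher and 0% lower. At -5, 7 of 8 classes tested rose. Here the 3-nt tail held 3 to 8 reads per library in WT and 12 to 27 in hot3-2. The 10-nt tail held 3 to 10 and 28 to 66, with a log2 difference of 2.99 ± 0.37. Both reached the filter only because of the hot3-2 libraries. So did the 1-, 2-, 4- and 6-nt tails, with as few as 7, 9, 5 and 3 reads in a WT library. Only the 5-nt and 7-nt tails passed the filter in WT alone, so the number of classes that rose at -5 was largely set by the filter.

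In polysomes, and in the nonpolysome fraction of the triple mutant, some tail lengths rose and others fell. For hot3-2 against WT, 2 of 17 tailed classes rose and 4 fell, beside 79.5% of all rows called higher and 2.27% lower. Those that fell reached +2 or +3, the 6-nt tail at -4 by 1.48 ± 0.33 (edgeR, log2, adjusted p = 3.61e-05), the 7-nt tail at -4 by 1.03, the 5-nt tail at -3 by 0.65 and the 6-nt tail at -3 by 1.39 ± 0.30 (adjusted p = 2.02e-05). The share of tailed reads at -3 with 6 nt was 17.8% ± 1.73 in WT and 8.1% ± 0.66 in hot3-2. In hot3-2 dcl2 dcl4 against dcl2 dcl4, 1 of 15 classes rose and 3 fell in polysomes, beside 83% of all rows higher and 1.75% lower. Those that fell were the 6-nt tail at -4 (-1.18, adjusted p = 0.00471 by edgeR) and the 5-nt and 6-nt tails at -3 (-0.96 and -1.09). In the nonpolysome fraction of the same genotypes 1 of 21 classes rose and 2 fell, beside 87.7% of all rows higher and 0.794% lower, the latter being the 6-nt tails at -4 (-1.01, adjusted p = 0.0482 by edgeR) and at -3 (-1.004, adjusted p = 0.0293). Single tail lengths were not refitted with TMM scaling, under which a rise relative to D can turn.

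The shortened ends were also set against neighbouring ends. Relative to the ends just short of D no comparison passed, although 4 of 6 gained significance with -3 left out (exact permutation). A comparison could pass only if most of the 6 reached the smallest p of the exact test. In the nonpolysome fraction neither hot3-2 and WT nor the triple mutant and dcl2 dcl4 overlapped, so not passing there does not show equal levels. Relative to the precursor, whose own level rose in hot3-2, 5 of 6 passed. Relative to untailed reads at -2 and -1, untailed shortened reads in the nonpolysome fraction were at 11.9% ± 4.56 in hot3-2 and 5.76% ± 0.414 in WT (log2 ratio 1.05, exact permutation p = 0.0286, adjusted 0.0857). In total and polysome RNA the log2 ratios were 0.11 and 0.37 (adjusted 0.657 and 0.286 by exact permutation). Relative to untailed reads that ran past D by 1 to 22 nt, they were lower in total and nonpolysome hot3-2. In total RNA they were at 2.43% ± 0.575 of these precursor reads in hot3-2 and 11.02% ± 3.56 in WT (log2 ratio -2.18, exact permutation p = 0.0286, adjusted 0.0343). In nonpolysome RNA the values were 8.58% ± 4.2 and 16.6% ± 3.22 (log2 ratio -0.95, adjusted 0.0343 by exact permutation). These ratios carry the rise of the precursor. In total RNA precursor reads were at 1.46% of D in WT and 6.70% in hot3-2, and shortened ends at 0.160% and 0.164%. In nonpolysome RNA precursor reads were at 2.22% and 13.2%, and shortened ends at 0.361% and 1.18%. In polysomes the log2 ratio was -1.01 and did not pass (adjusted 0.0571, exact permutation), and without -3 it was 0.22. All 3 fractions passed for hot3-2 dcl2 dcl4 against dcl2 dcl4, at -2.18, -1.79 and -1.20 (each adjusted 0.0343 by exact permutation). The share of tailed shortened reads that a tail brought level with D did not pass in any of 6 comparisons, with exact permutation p of 0.229 or more.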

How the data were processed

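Each file that the authors deposited holds raw counts of reads, 1 for every pair of 3′ end position and tail length. Per the methods, reads of circularised RNA (PCR product, paired 150-nt reads) were trimmed, aligned with STAR to a home-made 45S rDNA reference and counted with an in-house script. The submitters' processing notes list cutadapt 4.2 and STAR 2.7.10b. A read's end and tail both come from that alignment, and molecules were not marked, so PCR copies count separately.

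Counts were divided by the untailed D-site count of the same library. Python 3.11.15, scipy 1.17.1, R 4.3.3 and edgeR 4.0.16 were used, with DESeq2 1.42.0 as an alternative. Genotypes were compared within a fraction by edgeR's quasi-likelihood test on 59 rows (30 positions, untailed and tailed, without untailed D) scaled by the D-site count in place of the library size, keeping rows that reached 10 counts in 4 or more libraries, and an adjusted p under 0.05 as called. Sums over the positions were compared by 2-sided exact permutation of libraries (70 arrangements), adjusted within each family. The smallest p of this test was 0.0286, so a comparison could pass only if most of its family reached that value. A comparison that did not pass can therefore still have groups without overlap. The edgeR fit was tested on simulated counts of independent libraries, without replicate pairs like those in hot3-2. The rule named all 6 classes and, at each position, the commonest tail length in total WT RNA and the length level with D. Members and lists were chosen with earlier results of these data known.

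Alternatives were all reads or TMM as the scale, all tail lengths as rows, no filter, DESeq2, each library left out, -3 left out, tails that stop short of D, replicates 1 and 3 or 2 and 4 alone, and the replicate number as a block. Summing replicates 1 and 3, and 2 and 4, was added after seeing the data. The share of all rows called was worked out for the main fit, the summed pairs and the rows of all tail lengths. Numbers of classes called under the other settings stand without that share and do not set these ends apart from other rows. By the correlation of same-numbered libraries' deviations (every pair over 0.1), the numbers in the labels paired the libraries in 10 of 12 genotype and 10 of 12 fraction comparisons. The exceptions were hot3-2 against WT in nonpolysome (lowest r = -0.202), hot3-2 dcl2 dcl4 against dcl2 dcl4 in polysome (-0.0905), and nonpolysome against polysome in WT (-0.146) and dcl2 dcl4 (-0.194).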

Additional observations from a re-analysis of the deposited data

Results flagged for a closer look

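Of 108 sets of 4 libraries tested for an isolated value, 2 had one, and chance flags about 1 in 20 such sets. Untailed reads at -4 made up 0.00673% of D in hot3-2 total replicate 3, against 0.00585% to 0.00596% in the other 3 libraries. Tailed reads at -3 made up 0.0189% of D in WT total replicate 2, against 0.0224% to 0.0231% in the other 3.

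The effect of hot3-2 on the untailed -5 and -4 ends differed between fractions by edgeR's interaction test. It was larger in nonpolysome than in total RNA by 2.25 at -5 (adjusted p = 0.0331) and 2.18 at -4 (adjusted p = 0.0283) on the log2 scale. It was larger in polysomes than in total RNA by 1.37 at -5 and 1.35 at -4 (adjusted p = 0.0223 for both). Replicates 1 and 3 carried more of these ends than replicates 2 and 4 in both gradient fractions of hot3-2, and the part of that split in the interactions was not tested beyond the summed pairs, with which 3 classes were called for nonpolysome and 0 for polysome.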

How the results depend on the processing

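All values are log2 ratios unless called numbers of classes. Over all alternatives 1306 values were counted as the same, 30 reversed, 69 lost and 15 gained significance, and 82 moved. Where a test was rerun, the same meant an unchanged direction and side of the threshold. Where only a ratio was recomputed, it meant a shift smaller than the spread between libraries, with no p-value. For numbers of classes called it meant a change within 1.5 times. Under TMM, all reads, DESeq2, the replicate block and single libraries left out, these numbers have no share of all rows beside them. The cause of these shifts was not tested. The depth at -5 limits total RNA most, where single libraries held as few as 26 untailed reads.

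With -3 left out, the summed untailed ends of hot3-2 against WT were at 2.47 in nonpolysome and 1.63 in polysome, those of hot3-2 dcl2 dcl4 against dcl2 dcl4 at 0.23, 1.17 and 0.62 in total, nonpolysome and polysome, those against hot3-2 at -0.12, -1.66 and -1.25, and those of dcl2 dcl4 against WT at -0.10 in total and -0.36 in nonpolysome; outside total RNA all of these had an adjusted p of 0.049 by exact permutation. Polysome over total, untailed, became 0.87 in WT, 2.26 in hot3-2, 0.73 in dcl2 dcl4 and 1.13 in the triple mutant (adjusted p = 0.0286, exact permutation). For tailed reads, nonpolysome over total became 0.76, 0.92, 1.03 and 0.74 in these genotypes, polysome over total in WT 0.42, and nonpolysome over polysome 0.88 in hot3-2, 0.60 in dcl2 dcl4 and 0.68 in the triple mutant, none past the threshold, and the tailed ends of hot3-2 dcl2 dcl4 against hot3-2 in polysome -0.0231. The share level with D in hot3-2 dcl2 dcl4 against dcl2 dcl4 turned to -0.16 in total RNA. Relative to -2 and -1, hot3-2 against WT became 0.32, 1.78 and 1.53 and the triple mutant against dcl2 dcl4 0.15 in total and 0.92 in nonpolysome. Of these comparisons 4 gained significance and 1 reversed (exact permutation). Relative to precursor, hot3-2 against WT became -0.22 in nonpolysome and 0.22 in polysome, where 1 lost significance and 1 reversed.

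With all reads as denominator, untailed hot3-2 against WT in total RNA was at -0.0805, and tailed hot3-2 dcl2 dcl4 in nonpolysome was at -0.26 against dcl2 dcl4 and 0.00619 against hot3-2. With only tails that stop short of D, tailed hot3-2 against WT was at -0.0275 in total and 0.0343 in polysome, hot3-2 dcl2 dcl4 against dcl2 dcl4 in polysome at 0.25, and against hot3-2 at 0.0315 in total and -0.0016 in polysome. Polysome over total was then at 0.0286 in WT and -0.0969 in dcl2 dcl4, and nonpolysome over polysome in WT at 0.69, past the threshold.

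In replicates 2 and 4 alone, untailed hot3-2 against WT in nonpolysome was at 0.72, hot3-2 dcl2 dcl4 against hot3-2 at -0.39, and nonpolysome over total in hot3-2 at 2.02. Tailed values in replicates 1 and 3, and in 2 and 4, were 0.20 and -0.54 for hot3-2 against WT in polysome, 0.64 and -0.78 for hot3-2 dcl2 dcl4 against dcl2 dcl4 in nonpolysome, and -0.25 and 1.203 in nonpolysome and 0.31 and -0.45 in polysome for dcl2 dcl4 against WT. For tailed fractions they were 0.23 and 0.60 (polysome over total, WT), 1.48 and 0.0875 (nonpolysome over polysome, WT), 0.66 and 0.0695 (polysome over total, dcl2 dcl4), 0.92 and 1.74 (nonpolysome over polysome, dcl2 dcl4), 1.76 and 1.12 (nonpolysome over total, hot3-2), 0.25 and -0.21 (polysome over total, hot3-2), 2.02 and 0.82 (nonpolysome over total, hot3-2 dcl2 dcl4) and 0.24 and -0.0872 (polysome over total, hot3-2 dcl2 dcl4). Replicates 2 and 4 gave 0.69 for nonpolysome over total in WT and 0.91 for nonpolysome over polysome in hot3-2 dcl2 dcl4.

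Under TMM edgeR called 6 classes in hot3-2 against WT in total RNA, 6 in each fraction of hot3-2 dcl2 dcl4 against dcl2 dcl4, 0 in hot3-2 dcl2 dcl4 against hot3-2 in polysome and 0 for the nonpolysome minus total interaction. The calls that reversed were untailed -5 (-1.66) and tailed -5 (-1.48) in total hot3-2 against WT, tailed -5 (-1.24), untailed -4 (-0.63) and untailed -3 (-1.38) in nonpolysome, and tailed -5 (-1.44) and untailed -4 (-0.51) in polysome. In hot3-2 dcl2 dcl4 against dcl2 dcl4 they were tailed -5 (-1.55) in total, untailed -5, -4 and -3 (-1.19, -1.47 and -1.98) in nonpolysome, and untailed -5 and -4 (-0.99 and -1.25) in polysome. With every tail length as a row, edgeR called 2 classes in total and 6 in nonpolysome for hot3-2 dcl2 dcl4 against dcl2 dcl4, and 0 in polysome against hot3-2. With all reads as library size it called 0 in the latter and 1 for the nonpolysome minus total interaction. DESeq2 called 2 classes in nonpolysome hot3-2 dcl2 dcl4 against hot3-2, 1 for the nonpolysome minus polysome interaction and 1 for the background interaction in polysome. With summed pairs edgeR called 1 class in polysome hot3-2 dcl2 dcl4 against dcl2 dcl4, 3 in nonpolysome and 0 in polysome against hot3-2, and 0 for the polysome minus total interaction; untailed -3 in nonpolysome hot3-2 dcl2 dcl4 against dcl2 dcl4 then lost its call (0.60, adjusted p = 0.0761, edgeR).

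With the replicate number as a block, the number of classes called was 1 in each fraction of hot3-2 dcl2 dcl4 against hot3-2, 1 in nonpolysome dcl2 dcl4 against WT, 4 for the nonpolysome minus total, 1 for the polysome minus total and 3 for the nonpolysome minus polysome interaction, and 1 for the background interaction in nonpolysome. Pairing lost the call of untailed -4 in hot3-2 dcl2 dcl4 against hot3-2 in polysome (-1.13) and in the polysome minus total interaction (1.28). In the comparisons not named here the counts with the block stayed within 1.5 times.

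With single libraries left out, hot3-2 dcl2 dcl4 against hot3-2 had 0 to 3 classes called in nonpolysome (3 without hot3-2 replicate 2) and 0 to 2 in polysome (0 without any one library other than hot3-2 replicates 2 and 4). The nonpolysome minus total interaction had 0 to 3, with 0 without hot3-2 nonpolysome replicate 1 or 3, WT nonpolysome replicate 1 or 2, hot3-2 total replicate 1, 2 or 4, or WT total replicate 4, and 1 without hot3-2 total replicate 3. The polysome minus total interaction had 0 to 2, with 0 without hot3-2 polysome replicate 1 or 3 and 1 without WT total replicate 2 or 4. The nonpolysome minus polysome interaction had 0 to 2 (2 without hot3-2 nonpolysome replicate 2, 1 without WT polysome replicate 3), and the background interaction 0 to 1 in nonpolysome (1 without hot3-2 replicate 2 or 4) and 0 to 1 in polysome (1 without hot3-2 replicate 2 or 4 or dcl2 dcl4 replicate 1). The sums over positions kept their direction or stayed within the spread between libraries.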
